A study of Mus musculus with 5 samples.

Results

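Cells answer a shortage of oxygen through the hypoxia-inducible factors (HIFs), transcription factors made of an oxygen-regulated alpha subunit and the stable partner ARNT. When oxygen is plentiful, prolyl hydroxylases mark the alpha subunit for destruction through the VHL ubiquitin ligase, and when oxygen falls the subunit accumulates and switches on genes for blood vessel growth, glucose uptake, glycolysis and mitochondrial turnover. HIF activity is set largely by the stability of the protein, so the mRNA of the alpha subunit is not a readout of that activity, whereas the mRNAs of the targets are closer to one. The retina is known for its high oxygen use and its glycolysis, and its glia are a known source of VEGF.

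The genes described here are 10 members of this response, chosen by name. They are the alpha subunits Hif1a and Epas1, the prolyl hydroxylases Egln1 and Egln3, the secreted factors Vegfa and Adm, the glucose genes Slc2a1 and Pfkfb3, and the targets Bnip3 and Ankrd37. Each had a single row in the count table of 33636 genes, and all 10 passed the count filter that left 17432 genes to be tested (over 10 counts in 2 or more of the libraries).

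The libraries were poly-A RNA from whole retinas of male wild-type C57BL/6J mice, collected at P42 in the light phase. In the FDM group (form-deprivation myopia, n = 2) the right eye had looked through a diffuser goggle from P28, for 2 weeks, and in the Control group (n = 3) the retina came from the uncovered left eye of such a goggled mouse. By the animal numbers of the study and the count table, FDM 1 and Control 1 were the eyes of one mouse, FDM 3 and Control 3 those of another, and Control 2 stood without its fellow eye. The sample labels number the second FDM library differently. The control eyes were thus from treated animals, and an effect shared by both eyes cannot be seen in these libraries. The refractive errors given in the labels were 0.98 and 0.27 D for the FDM eyes and ran from 2.45 to 3.15 D for the control eyes.

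The alpha subunit and ARNT bind DNA at a short core, ACGTG or GCGTG. The following stretches show that core in the promoters of the 9 members that had an entry in the RefSeq promoter table (GRCm38.p6), which gives 250 bases before to 50 bases after a start of transcription. Each stretch is 25 bases long, is written 5′ to 3′ on the strand of the gene, and has every occurrence of the core in capitals. A core on the opposite strand shows as its reverse complement, CACGT or CACGC. For each window the match nearest before the start is shown, with the whole stretch before that start. Adm has the core on the opposite strand. The stretch of Vegfa is from its downstream start and has 1 core on each strand. At the downstream start of Pfkfb3 and in Ankrd37 the cores of both strands overlap.

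Hif1a (chr12:73907787-73907811, plus strand): gctgagagcaACGTGggctggggtg
Egln1 (chr8:124949308-124949332, minus strand): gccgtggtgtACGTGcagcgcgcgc
Egln3 (chr12:54204089-54204113, minus strand): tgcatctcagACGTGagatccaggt
Vegfa (chr17:46025360-46025384, minus strand): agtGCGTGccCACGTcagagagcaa
Adm (chr7:110627593-110627617, plus strand): caaatctgacCACGCccaccgtccg
Slc2a1 (chr4:119108699-119108723, plus strand): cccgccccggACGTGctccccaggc
Pfkfb3, upstream start (chr2:11553975-11553999, minus strand): ccgcgccgtgACGTGccaagctgtg
Pfkfb3, downstream start (chr2:11502128-11502152, minus strand): ccttctctcCACGTGaaagggggct
Bnip3 (chr7:138909527-138909551, minus strand): ctccgccgccGCGTGcgtcccgccc
Ankrd37 (chr8:45999988-46000012, minus strand): cactgcgCACGCGTGctgcggccgc

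Of 11 windows of the 9 members, 10 held the core on at least 1 strand, and the window at the upstream start of Vegfa did not. Over all 32851 windows in the table, 43.8% held it, with ACGTG in 19.6% and GCGTG in 32.4%, and overlapping matches on both strands (such as CACGTG) counted for each strand. Bnip3 had 5 matches in its window, Ankrd37 had 4 and Egln3 had 1. A match is only an occurrence of these letters, and no binding was measured in these libraries.

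The 5 libraries held 40599047 to 56534931 estimated counts, and 3 counts, the floor taken for detection, correspond to 0.0526 to 0.0751 CPM (counts scaled to the library total, corrected by TMM factors of 0.984 to 1.01). Summed levels of 5 photoreceptor markers, led by Gnat1, were 23940 to 29740 CPM, so the defining markers of the labelled tissue were abundant in every library. Endothelial markers, led by Pecam1, summed to 45.2 to 60.8 CPM, pericyte markers, led by Rgs5, to 80.7 to 88.9 CPM, and Müller glial markers, led by Glul, to 3870 to 4149 CPM. Astrocyte markers, led by Gfap, summed to 31.95 to 41.6 CPM, microglial markers, led by Cx3cr1, to 9.34 to 11.6 CPM and red blood cell markers, led by Hbb-bs, to 33.0 to 47.6 CPM. Some libraries stood apart in other tissues. Markers of the retinal pigment epithelium (RPE), led by Ttr, summed to 74.3 and 59.8 CPM in FDM 1 and FDM 3 and to 80.8, 268 and 229 CPM in Control 1, 2 and 3, and 7 of these 8 genes had an unadjusted p under 0.05 between the groups. Lens markers, led by Cryaa, summed to 1986 CPM in FDM 3 and to 38.8 to 53.3 CPM in the others, and skeletal muscle markers, led by Ckm, to 55.8 CPM in Control 3 and to 9.24 to 10.7 CPM in the others. In such bulk samples fewer cells of a type and less RNA per cell cannot be told apart.

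Hypoxia-responsive genes spanned a wide range of levels in the retina. Per kilobase of merged exon, which allows comparison between genes, the level over all 5 libraries was highest for Hif1a (71.7 ± 9.64 CPM per kb, SD, n = 5), the subunit of HIF-1, and for Slc2a1 (63.5 ± 3.27), the glucose transporter GLUT1. The mitophagy receptor Bnip3 (56.0 ± 2.71), the angiogenic ligand Vegfa (43.1 ± 2.19) and Epas1, the subunit of HIF-2 (38.0 ± 2.05), came next. Egln1, the main oxygen-sensing hydroxylase (25.9 ± 1.75), the ankyrin-repeat gene Ankrd37 (16.0 ± 1.03) and Pfkfb3, which makes the glycolytic activator fructose-2,6-bisphosphate (6.40 ± 0.76), followed. The inducible hydroxylase Egln3 (1.30 ± 0.28) and Adm, which encodes the vasodilator peptide adrenomedullin (0.54 ± 0.18), were far lower. The ranges over the 5 libraries overlapped between Hif1a and Slc2a1 and between Vegfa and Epas1, and were separate for the other neighbours in this order. The exon length of the isoforms actually expressed was not given, so the order rests on annotated length.

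No member passed the test between FDM and control eyes. With all 5 libraries in edgeR's quasi-likelihood test, 0 of 10 members had an unadjusted p under 0.05, where 281 of 17432 genes (1.61%) did, and the adjusted p of every member was 1.0. None of the genes tested had an adjusted p under 0.05 in edgeR, and 3 did in DESeq2. The log2 fold change (FDM minus control) was above 0 for 3 members, namely Egln1, Vegfa and Ankrd37, and below 0 for 7. Its median over the members was -0.05 against -0.01 over all genes tested, and the median size without regard to sign was 0.080 against 0.066. The intervals were narrow for most members. The 95% interval of the difference lay within a 2-fold change in either direction for 9 of the 10, all but Adm, and within 1.5-fold for 8, all but Adm and Egln3. Only Slc2a1 had both FDM libraries on one side of all 3 control libraries, which held for 10.6% of all genes tested.

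**Figure D1:**
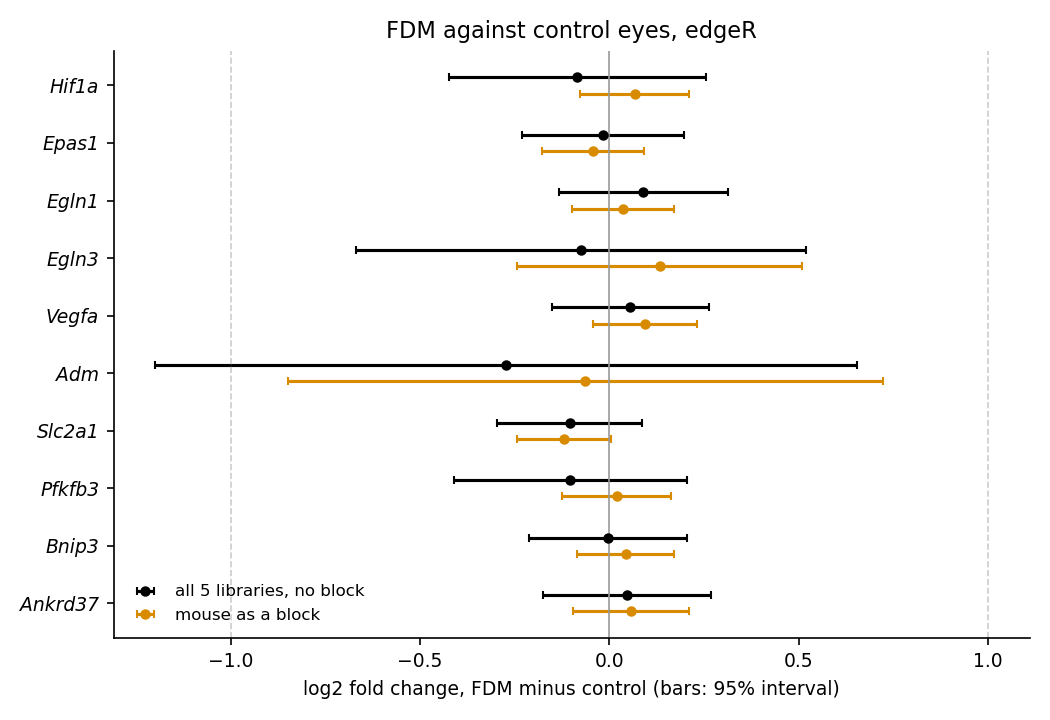
Log2 fold change of each gene (x axis, FDM minus control), with 95% intervals from edgeR, without a block (black) and with the mouse as a block (orange); dashed lines mark 2-fold changes. All intervals cross 0, and that of Adm without the block, from -1.20 to 0.65, is the widest.

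Hif1a (ENSMUSG00000021109, chromosome 12, 73901375 to 73947530 of GRCm38) encodes the oxygen-regulated subunit of HIF-1. Its level was 421 and 394 CPM in FDM 1 and FDM 3 and 369, 518 and 409 CPM in Control 1, 2 and 3. Control 2 was the highest library and Control 1 the lowest, so the FDM libraries lay inside the control range. The group means were 408 ± 18.8 CPM (SD, n = 2) and 432 ± 76.9 CPM (SD, n = 3), and the log2 fold change was -0.08 ± 0.14 (SE) with a 95% interval of -0.42 to 0.26 (edgeR, unadjusted p = 0.576). The coefficient of variation among control eyes was 17.8%, where the median over all genes tested was 10.6% and that over the members 7.45%.

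Epas1 (ENSMUSG00000024140, chromosome 17, 86753700 to 86833410) encodes the corresponding subunit of HIF-2, which is known from endothelium. It was at 210.5 and 211 CPM in the FDM eyes and at 232, 204 and 203.5 CPM in Control 1, 2 and 3. The FDM libraries almost coincided and lay between the control values, of which Control 1 was the highest. The summed endothelial markers were also highest in Control 1, as were those of photoreceptors, astrocytes and microglia. Endothelial markers summed to 45.15 CPM in Control 2 and 55.64 CPM in Control 3, where Epas1 was nearly equal. The part of these cells in this level was not tested. FDM minus control, the log2 fold change was -0.02 ± 0.09 (SE; 95% interval -0.23 to 0.20; edgeR, unadjusted p = 0.866).

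Egln1 (ENSMUSG00000031987, chromosome 8, 124908587 to 124949324) encodes PHD2, the hydroxylase that marks HIF alpha subunits under normal oxygen. FDM 1 and FDM 3 had 100.5 and 92.9 CPM, and the control eyes 97.5, 84.1 and 91.2 CPM. FDM 1 was the highest library and Control 2 the lowest, with overlap between the groups. Means were 96.7 ± 5.43 CPM (SD, n = 2) in FDM and 90.9 ± 6.69 CPM (SD, n = 3) in control eyes, a log2 fold change of 0.09 ± 0.10 (SE; 95% interval -0.13 to 0.31; edgeR, unadjusted p = 0.379).

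Egln3 (ENSMUSG00000035105, chromosome 12, 54178981 to 54203860) encodes PHD3, a hydroxylase that HIF itself induces. It rested on few counts: 130 and 179 in FDM 1 and FDM 3, and 98, 251 and 177 in Control 1, 2 and 3, which is 2.46 to 4.40 CPM. The lowest and highest libraries were both control eyes, and the FDM libraries lay between them. Between the groups the log2 fold change was -0.08 ± 0.25 (SE) with a 95% interval of -0.67 to 0.52 (edgeR, unadjusted p = 0.774).

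Vegfa (ENSMUSG00000023951, chromosome 17, 46016993 to 46032369) encodes the main ligand of VEGF receptor 2 and is among the best known HIF targets. Its level was 183 and 195 CPM in the FDM eyes and 184, 191 and 170.4 CPM in Control 1, 2 and 3. FDM 3 was the highest library, but FDM 1 lay below 2 of the control libraries. Means were 189 ± 8.33 CPM (SD, n = 2) and 182 ± 10.6 CPM (SD, n = 3), and the log2 fold change was 0.06 ± 0.09 (SE; 95% interval -0.15 to 0.26; edgeR, unadjusted p = 0.547).

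Adm (ENSMUSG00000030790, chromosome 7, 110627661 to 110629820) encodes a peptide that dilates vessels and is induced by hypoxia in many tissues. It had 20 and 53 counts in FDM 1 and FDM 3 and 33, 70 and 37 counts in Control 1, 2 and 3. These are 0.46 and 1.102 CPM in FDM and 0.83, 1.23 and 0.78 CPM in control eyes, above the floor in each library. The FDM libraries lay far apart, FDM 1 below all control eyes and FDM 3 above 2 of them. The log2 fold change was -0.27 ± 0.39 (SE) with a 95% interval of -1.20 to 0.65 (edgeR, unadjusted p = 0.512), and the interval held both a 2-fold decrease and no change. That log2 fold change was -1.04 when FDM 3 was left out and 0.21 when FDM 1 was left out, each time with 1 FDM library remaining.

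Slc2a1 (ENSMUSG00000028645, chromosome 4, 119108711 to 119137983) encodes GLUT1, which carries glucose across the blood-retina barrier and into retinal cells. It was at 214 and 212 CPM in FDM 1 and FDM 3 and at 222, 224 and 241 CPM in Control 1, 2 and 3. Both FDM libraries were below all control libraries, by a small margin. Means were 213 ± 1.36 CPM (SD, n = 2) and 229 ± 10.4 CPM (SD, n = 3), a log2 fold change of -0.10 ± 0.08 (SE) with a 95% interval of -0.30 to 0.09 (edgeR, unadjusted p = 0.24). GLUT1 is also known from the RPE and from endothelium, and the summed RPE markers were lower in both FDM libraries than in all control libraries. The RPE sum was highest in Control 2, and Slc2a1 was highest in Control 3. Summed endothelial markers overlapped, at 54.99 and 54.75 CPM in FDM 1 and FDM 3 and 60.79, 45.15 and 55.64 CPM in Control 1, 2 and 3. The part of either tissue in this difference was not tested.

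Pfkfb3 (ENSMUSG00000026773, chromosome 2, 11471433 to 11554077) had 43.8 and 48.8 CPM in FDM 1 and FDM 3, and 43.6, 57.8 and 47.8 CPM in Control 1, 2 and 3. Pfkfb3 belongs to the enzymes that set the pace of glycolysis. Control 2 was again the highest library and Control 1 the lowest, and the FDM libraries lay inside the control range. On the log2 scale the fold change was -0.10 ± 0.13 (SE; 95% interval -0.41 to 0.20; edgeR, unadjusted p = 0.453).

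Bnip3 (ENSMUSG00000078566, chromosome 7, 138890836 to 138909519) encodes a mitochondrial outer-membrane protein that recruits the autophagy machinery. Its level was 125 and 128 CPM in FDM 1 and FDM 3 and 118, 135 and 128 CPM in Control 1, 2 and 3. The group means, 127 ± 2.34 CPM (SD, n = 2) and 127 ± 8.52 CPM (SD, n = 3), differed by far less than the spread of the control eyes. The log2 fold change was -0.0030 ± 0.09 (SE; 95% interval -0.21 to 0.21; edgeR, unadjusted p = 0.974), and its sign depended on the normalization.

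Ankrd37 (ENSMUSG00000050914, chromosome 8, 45996902 to 46005707) is a HIF-1 target with few other described roles. It was at 23.1 and 27.2 CPM in FDM 1 and FDM 3 and at 23.8, 24.8 and 24.5 CPM in Control 1, 2 and 3. The FDM libraries were the lowest and the highest of the 5, with the control eyes between them. Its log2 fold change was 0.05 ± 0.09 (SE; 95% interval -0.18 to 0.27; edgeR, unadjusted p = 0.641).

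**Figure D2:**
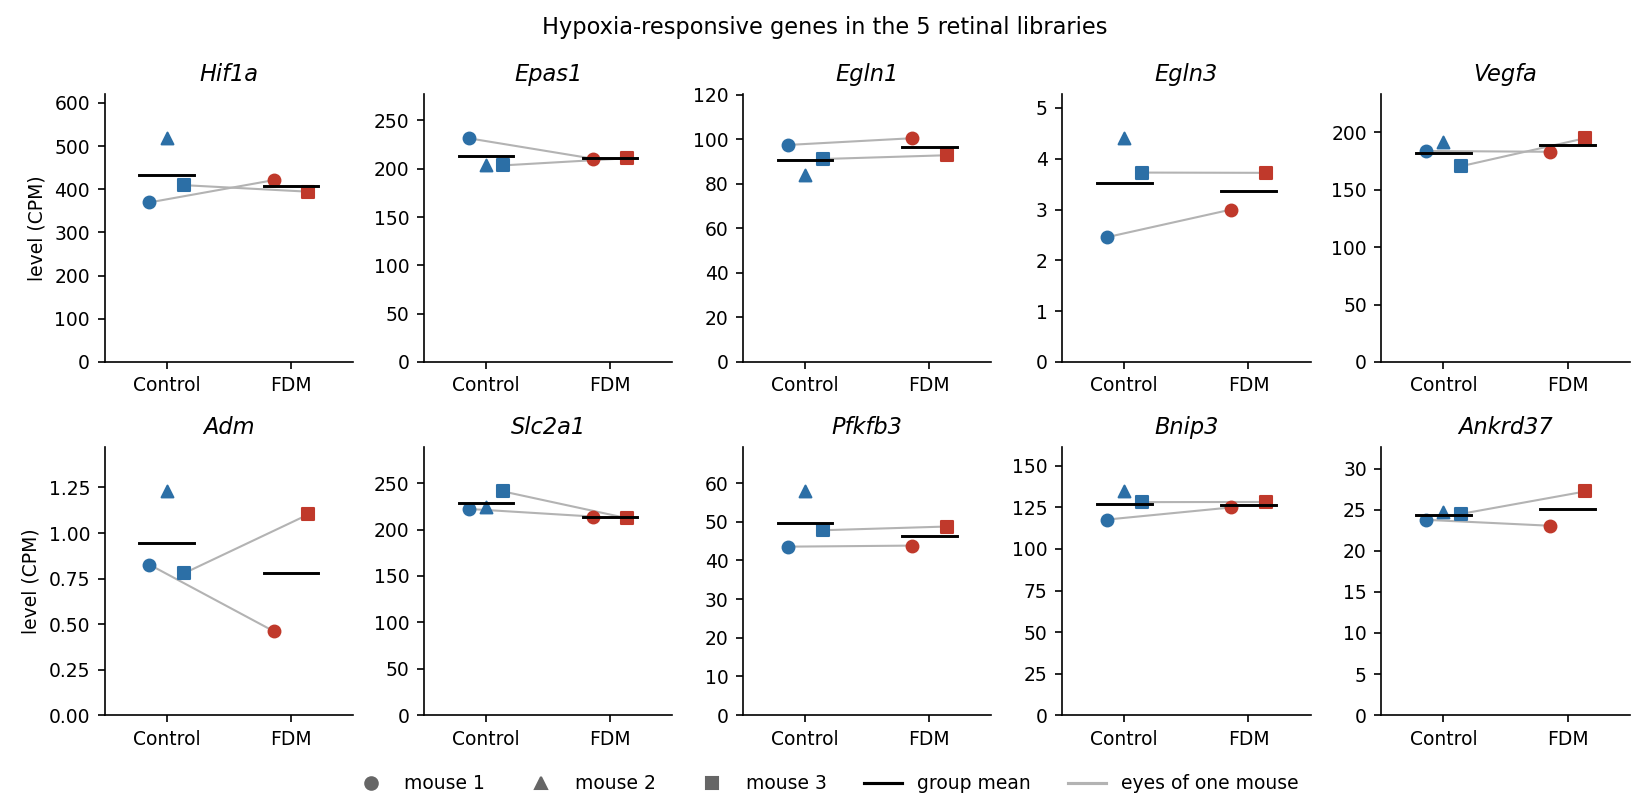
Level of each gene in CPM (y axis, from 0, its own scale for each gene) in control and FDM eyes; symbols mark the mouse, grey lines join the eyes of one mouse and black bars are group means. The groups overlap for every gene but Slc2a1, where the FDM eyes are at 214 and 212 CPM and the lowest control eye is at 222 CPM.

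Since the eyes of 2 mice were both sequenced, the FDM eye can also be set against the control eye of the same animal, which takes out what the animal's eyes share. Within a mouse the sign of the difference was the same in both animals for 4 of the 10 members, against 55% of all genes tested. Egln1, Pfkfb3 and Bnip3 were higher in the FDM eye of both mice and Slc2a1 was lower in both. In the authors' normalized counts Pfkfb3 in mouse 1 was at -0.0040 and Egln3 in mouse 3 at 0.0017, so the signs of these near-zero differences depended on the normalization. In the FDM eye 5 members were higher in mouse 1 and 7 in mouse 3, and the share of all genes was not computed. The median difference of the members was 0.0017 in mouse 1 and 0.028 in mouse 3. Over all genes tested it was -0.019 and -0.0011, with 0.5 added to the CPM. The intervals that follow come from counting error alone (exact, 95%) and hold no variation between eyes.

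Hif1a was higher in the FDM eye of mouse 1, by 0.19 on the log2 scale (counting interval 0.16 to 0.22), and lower in that of mouse 3, at -0.05 (-0.08 to -0.03). Epas1 went the other way, with -0.14 (-0.18 to -0.10) in mouse 1 and 0.05 (0.01 to 0.09) in mouse 3. The subunits of HIF-1 and HIF-2 thus had opposite signs within each mouse, and each had opposite signs in the mice.

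Egln1 differed by 0.04 in mouse 1 and 0.03 in mouse 3, both with counting intervals that included 0. Vegfa had nearly equal levels in the eyes of mouse 1 (-0.0057, interval -0.05 to 0.04) and was higher in the FDM eye of mouse 3 (0.19, interval 0.15 to 0.24). Ankrd37 showed a like arrangement, with -0.04 (-0.17 to 0.09) in mouse 1 and 0.15 (0.04 to 0.27) in mouse 3. Neither gene therefore had a direction that both animals shared. FDM 3, where both were highest, was also the library with 1986 CPM of lens markers, whose part was not tested.

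Slc2a1 was lower in both FDM eyes, by -0.05 (-0.10 to -0.01) in mouse 1 and -0.18 (-0.22 to -0.15) in mouse 3. It was the single member whose counting intervals excluded 0 in the same direction in both mice. Those of Hif1a and Epas1 excluded 0 in both mice in opposite directions. The share of all genes for which either held was not computed. Control 3, where it was highest, also held the most skeletal muscle markers, whose part was not tested. The values for Pfkfb3 were 0.0090 and 0.03, and for Bnip3 0.09 and 0.00026, so for these genes 1 or both of the differences were near 0. Adm had the largest differences, -0.84 (-1.72 to 0.0029) and 0.50 (-0.13 to 1.15), in opposite directions and with intervals that reached 0.

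**Figure D3:**
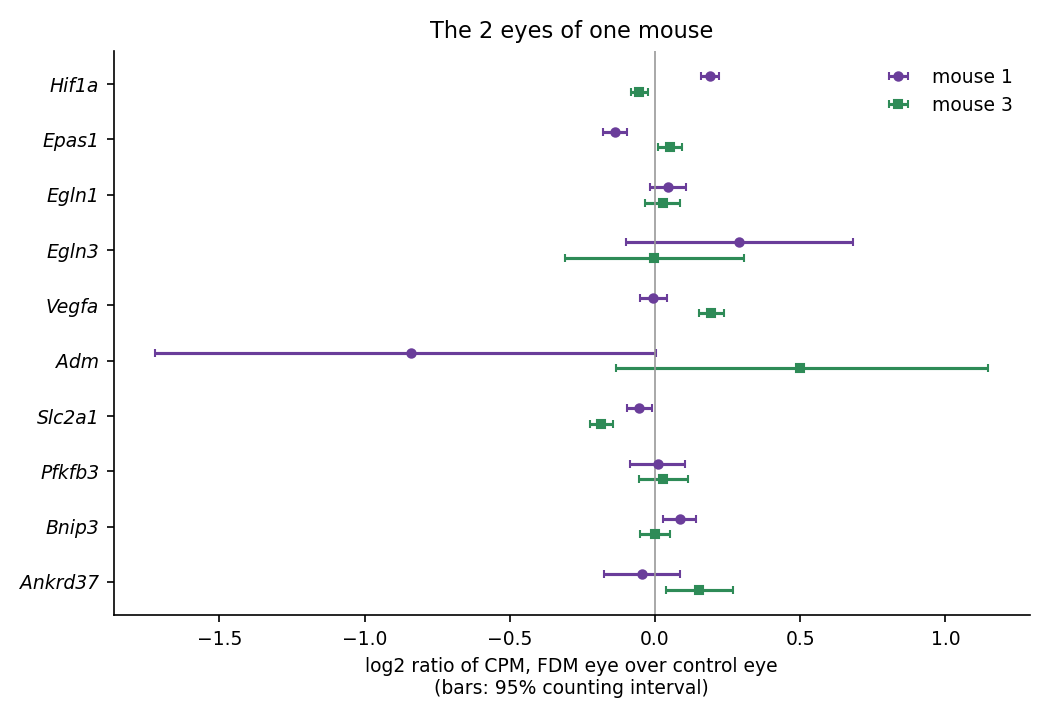
Log2 ratio of CPM in the FDM eye over the control eye (x axis) for each gene in mouse 1 (circles) and mouse 3 (squares); bars are 95% counting intervals. Hif1a, at 0.19 and -0.05, and Adm, at -0.84 and 0.50, are on opposite sides of 0 in the mice, while Slc2a1, at -0.05 and -0.18, is below 0 in both.

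Fitting the mouse as a block uses these pairs in a single test. With it 1261 genes (7.23%) had an unadjusted p under 0.05, 54 genes an adjusted p under 0.05, and 0 of 10 members passed either threshold. Slc2a1 had the smallest p of the members there, with a log2 fold change of -0.12, a 95% interval of -0.24 to 0.0050 and an adjusted p of 0.695 (edgeR, unadjusted p = 0.058). Vegfa followed with 0.09 and an adjusted p of 0.746 (edgeR, unadjusted p = 0.158). The block turned the sign of Hif1a to 0.07, of Egln3 to 0.13, of Pfkfb3 to 0.02 and of Bnip3 to 0.04. For all of these genes Control 2 was the highest library. Control 2 is alone in its block, so it does not enter the FDM difference in this model. Without a block, leaving out Control 2 gave 0.076 for Hif1a, 0.13 for Egln3, 0.029 for Pfkfb3 and 0.052 for Bnip3. Only 1 degree of freedom remains among the libraries in this model, and edgeR borrows the spread from the other genes.

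The spread of the control eyes was set beside these differences. For 6 of the 10 members the range of the 3 control eyes exceeded the difference within both mice. The share of all genes for which this held was not computed. Control 1 and Control 3 enter both measures, and Control 2 enters only the range. A range over 3 libraries and a difference of 1 pair are unlike measures, so this count is a description only. The median range of the members was 0.20 on the log2 scale, against 0.17 for the larger of the within-mouse differences. Over all genes tested the median range was 0.26, with 0.5 added to the CPM. Control 2 was the highest of the 5 libraries for 5 members, namely Hif1a, Egln3, Adm, Pfkfb3 and Bnip3, where it was the highest for 31.4% of all genes tested. Control 1 was the lowest library for 4 of these 5, all but Adm, and the share of all genes for which this held was not computed. Over all genes tested, deviations of Control 1 and Control 2 from the control mean correlated at -0.68. The values were -0.38 for Control 1 with Control 3 and -0.419 for Control 2 with Control 3. Deviations from the mean of these 3 libraries cancel out, so negative correlations are built in. The values therefore do not show by themselves that 2 libraries were opposed. Hif1a was 0.41 higher on the log2 scale in Control 2 than in the mean of the other control eyes. The summed RPE markers were highest in Control 2 and the endothelial and photoreceptor markers lowest there, and their part in these levels was not tested.

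The wider pathway was read through 80 further genes in 4 lists, of which 78 had enough counts to be tested. At an unadjusted p under 0.05 in edgeR, 0 rose and 1 fell, against 1.61% of all genes tested in either direction, and none had an adjusted p under 0.05. The median log2 fold change of the 78 genes was -0.03.

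Among 20 core regulators, which include the ARNT partners, VHL and its ligase subunits, and co-activators, 0 of 20 passed the test in either direction. Their log2 fold changes ran from -0.13 to 0.10 with a median of -0.02. The chaperone gene Hsp90aa1, whose product steadies HIF-1 alpha among many clients, was the most abundant at 1467 CPM on average and had a log2 fold change of -0.03.

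Among 39 tested HIF targets, which include glycolytic enzymes, carbonic anhydrases and collagen-modifying enzymes, 0 rose and 1 fell, and the median was -0.03. The glycolytic enzyme Eno1 was the most abundant at 2717 CPM on average and had a log2 fold change of -0.04. The gene that fell was Car12, a membrane carbonic anhydrase that helps to export acid. It was at 2.98 and 1.83 CPM in FDM 1 and FDM 3 and at 2.48, 7.44 and 5.90 CPM in Control 1, 2 and 3. Control 1 lay between the FDM libraries, so the groups overlapped. The log2 fold change was -1.15 ± 0.45 (SE; edgeR, unadjusted p = 0.0365, adjusted p = 1.0). The unadjusted p rose to 0.105 without Control 2, 0.102 without Control 3, 0.156 without FDM 3 and 0.0674 with the mouse as a block. It fell to 0.000586 without Control 1, to 0.00608 in DESeq2 and to 0.000177 with the label number as a block. The summed RPE markers were likewise highest in Control 2 and Control 3, and their part in this difference was not tested. Epo, the kidney-derived hormone gene by which HIF was found, had 3 to 9 counts and was not tested.

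Among 16 tested genes for VEGF and adrenomedullin receptors and related ligands, 0 of 16 passed in either direction, with values from -0.50 (Angpt1) to 0.11 (Vegfc) and a median of -0.08. Kdr, VEGF receptor 2, was the most abundant, at 202 and 170.2 CPM in the FDM eyes and 198, 164 and 163 CPM in the control eyes, with overlap and a log2 fold change of 0.09. Among 8 paralogues of the members 0 of 8 passed, with values from -0.20 to 0.28, and the most abundant was Pfkfb2 at 263 CPM on average.

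In the paired model, 5 of the 78 genes rose and 3 fell at an unadjusted p under 0.05 in edgeR, against 7.23% of all genes tested, and 0 had an adjusted p under 0.05. These genes were named after their values were seen. Those that rose were the pyruvate dehydrogenase kinase Pdk1 (0.20), the phosphofructokinase Pfkp (0.19), the oxidoreductase Ero1l (0.16), the co-activator Ep300 (0.16) and Pfkfb2 (0.20), an isoform of the Pfkfb3 enzyme. Those that fell included Ndrg1 (-0.12) and the ribosomal scaffold Rack1 (-0.13).

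**Figure D4:**
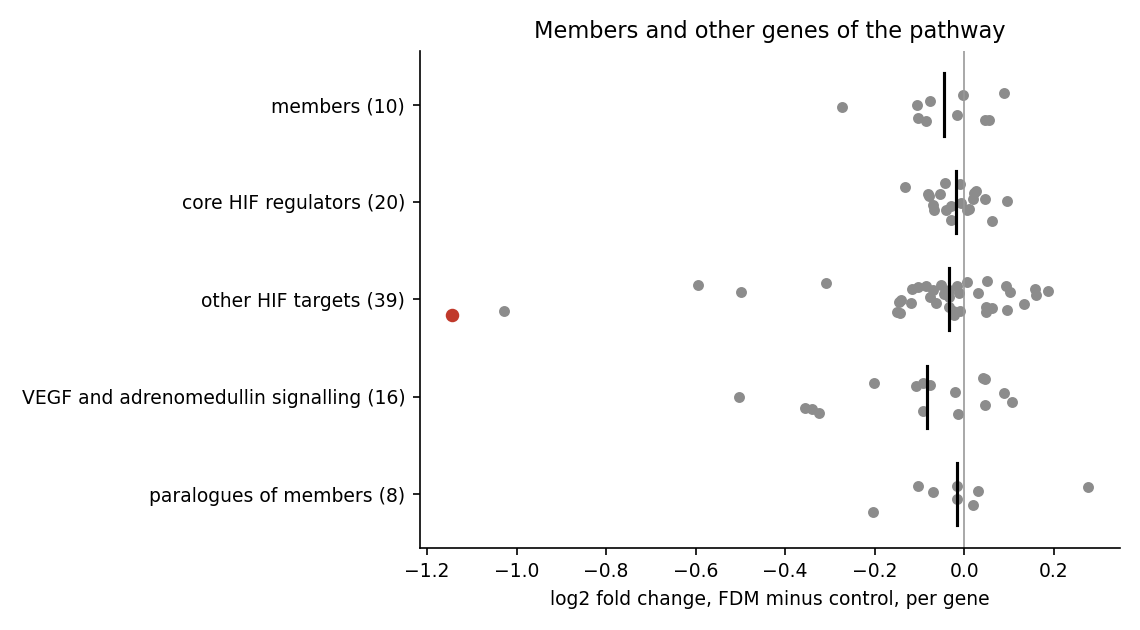
Log2 fold change (x axis, FDM minus control, edgeR without a block) of the 10 members and of the tested genes of each pathway list, with the number of genes in brackets; each point is 1 gene, black bars are medians and red marks an unadjusted p under 0.05. Medians lie between -0.08 and -0.02, and the single red point is Car12 at -1.15.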

How the data were processed

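Retinal RNA of 2 FDM and 3 control eyes was sequenced as paired 50-base reads. Per the submitters' processing notes, Trimmomatic 0.39, Salmon 1.10.1 and R 4.3.1 were used on GRCm38. The authors deposited estimated counts per gene as whole numbers, and a signal of DESeq2-normalized counts, which was used only in alternatives. The authors left out 1 FDM library for read duplication. Rows without a gene name (337) held 0.0806% of the counts and were kept by their identifier.

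Groups come from the labels. Eyes were paired by the animal numbers the study gives: the count table numbers the second FDM library 3, the labels 2. Deviations from the group means correlated at 0.247 in mouse 1 and 0.0998 in mouse 3, against 0.163 for FDM 3 with Control 2, the pairing that the label number would give. The deviations of the 2 FDM libraries mirror each other (correlation -1), so these values are not independent. The value for the label pairing was above that of mouse 3, so the correlations do not decide the pairing. No libraries were identical.

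Genes with over 10 counts in 2 or more of the libraries were tested with edgeR 4.0.16 (R 4.3.3; TMM, quasi-likelihood test, no covariate). The threshold was an unadjusted p of 0.05, as in the study, with Benjamini-Hochberg adjustment over all 17432 genes. The standard error is the log2 fold change over the square root of F. With 2 eyes against 3, p-values and 95% intervals of the log2 fold change rest on the spread of these eyes. In edgeR that spread is combined with the spread of other genes. The fit without a block treated the eyes of one mouse as independent. Counting intervals (95%) cover counting error only. Alternatives used DESeq2 1.42.0, limma 3.58.1, other factors and filters, mouse or label number as a block, and leaving out each library. Scripts were tested on simulated data. Coordinates and exon lengths are from GENCODE M21.

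The members and lists were chosen with earlier results of these data known. Named genes were all members, and of each list those with an unadjusted p under 0.05 and the most abundant one. Values of some genes of the lists are not reported here.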

Additional observations from a re-analysis of the deposited data

How the results depend on the processing

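Under 16 alternatives, 136 of 160 values of the members kept their direction and their side of the threshold, 23 reversed, and 1, Adm without FDM 3, passed the unadjusted threshold. Leaving out a library gave 0 to 1 members past it, and no other alternative gave any. Genes with an unadjusted p under 0.05 (281) numbered 172 in DESeq2, 498 without a count filter, 1261 with the replicate block by mouse, 439 with the block by label number and 146 to 944 when a library was left out. Those with an adjusted p under 0.05 (0) numbered 3 in DESeq2, 2 in DESeq2 with the authors' factors, 54 and 128 with the respective blocks and 0 to 16 when a library was left out. The median of the members became 0.039 with the block by mouse and ran from -0.089 (without Control 1) to 0.049 (without Control 2), and was 0.023 without FDM 1. The block by mouse changed no call of a member. Bnip3 reversed in DESeq2 (0.0033), with DESeq2 size factors (0.0034), upper-quartile factors (0.012), totals alone (0.0073), the blocks by mouse (0.043) and label number (0.0079), the authors' factors (0.024) and limma at both pseudocounts (0.028). The block by mouse also reversed Hif1a (0.067), Egln3 (0.13) and Pfkfb3 (0.019), and the block by label number reversed Egln3 (0.0081). Leaving out a library gave -0.18 to 0.076 for Hif1a, -0.041 to 0.049 for Epas1, -0.27 to 0.13 for Egln3, -1.04 to 0.21 for Adm, -0.19 to 0.029 for Pfkfb3, -0.053 to 0.052 for Bnip3, -0.079 to 0.16 for Ankrd37, -0.12 to -0.060 (without Control 3) for Slc2a1, 0.0097 (without FDM 3) to 0.10 for Vegfa and 0.031 (without FDM 1) to 0.15 for Egln1. Car12 stayed below 0 throughout, at -1.53 to -0.75, and missed the threshold in 6 of the 16. In the authors' normalized counts Slc2a1 differed by -0.11 in mouse 1, while Pfkfb3 in mouse 1 (-0.0040) and Egln3 in mouse 3 (0.0017) changed sign. A library left out of FDM leaves 1 there, assumed to vary like the controls. The causes were not tested. Adm had 20 to 70 counts and Egln3 98 to 251.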
